A study of Rattus norvegicus with 15 samples.

Results

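The translation factors and poly(A)-binding proteins described here are the probe sets whose single gene symbol begins with Eif, Eef, Pabp, Paip or Etf1, the first 2 followed by a digit. The rule found 104 probe sets of 66 genes among the 31042 non-control probe sets of the array, of which 20826 carry 1 gene symbol and stand for 14217 genes. The members were chosen by name and not by their values, although results of these data were known when the families were proposed. Another 5 probe sets pair a name of these families with a second symbol, and were left out. Of the members, 94 probe sets of 64 genes were bright enough to test, with a signal no lower than the median of the array in 5 or more of 15 arrays. The 2 genes that were not tested are Eef1a2 and Eef1akmt2.

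The samples are whole testes. They came from 25 to 27 week old LBNF1 rats, a first-generation cross of laboratory strains. The 10 control testes are described by their source as taken before irradiation, and the 5 irradiated testes as taken after it. Irradiation was 6 Gy to the lower abdomen, and the sources used here give no time between it and collection. All 15 samples were hybridised singly to Affymetrix 3' expression arrays, on which a probe set of short oligonucleotides reads the 3' part of a transcript. Titles number the samples as biological replicates without saying that each is another rat, so the p-values cover spread that may be technical. A value is a log2 signal, and a change is the irradiated mean minus the control mean on that scale. Signals of different probe sets are not comparable as levels, so only changes are set side by side. Where 3 control signals are given they are the lowest, median and highest of 10, and 5 irradiated signals are replicates 1 to 5 in order. The ± after a change is its standard error.

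Translation begins when eIF2 brings the initiator tRNA to the small ribosomal subunit, eIF1, eIF1A and the large eIF3 complex hold that subunit open for scanning, and eIF4F binds the mRNA cap. eIF4F consists of the cap-binding protein eIF4E, the scaffold eIF4G and the helicase eIF4A, and eIF4G also contacts poly(A)-binding protein on the mRNA's tail. Elongation then rests on eEF1A, its exchange factors and eEF2, and release on eRF1, the product of Etf1. In the testis, condensing spermatids stop transcription and use mRNAs stored earlier, so that germ cells are known for their own forms and regulators of these factors.

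Many mRNAs of the translation machinery begin with a C followed by a run of pyrimidines, the terminal oligopyrimidine start through which mTORC1 and Larp1 are known to act. RefSeq promoters of the build GRCr8 were given for 61 of the 66 genes. The windows shown run from 10 bases before to 20 bases after the annotated start, with capitals for a C followed by at least 4 pyrimidines that begins within 5 bases of that start. They are the eIF2 subunit genes, whose changes are described below, and 4 other genes that hold the run, all of them higher in irradiated testes. The genes that hold the run and were lower, Eif2b5, Eif4g1, Eif4g3 and Eif5a2, are not shown.
Eef1a1: ttggacgttCTTTTTCgcaacgggtttgcc
Eef1b2: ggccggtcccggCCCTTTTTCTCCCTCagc
Eif3f: cccttccgttctagCCTCTCTCTTTCTCgg
Eif2a: gcatgggtttCTCTTTCCgggacaagatgg
Eif2s3: cagccgagcattttCCTTTTCTCTCTgagc
Eif2s3y: tctttcgtgagcaagatggcgggcggagaa
Eif2s1: tgggaccctagttcgggattcacacataca
Eif2s2: tgagaggtatcggtaggagctacgctgact

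The windows lie at chr8:88225050-88225079, minus strand, for Eef1a1, at chr9:72074081-72074110, plus strand, for Eef1b2, at chr1:172369052-172369081, plus strand, for Eif3f, and at chr2:144911350-144911379, plus strand, for Eif2a. Those of the eIF2 subunits lie at chrX:62933680-62933709, minus strand, for Eif2s3, at chrY:944643-944672, plus strand, for Eif2s3y, at chr6:103405870-103405899, plus strand, for Eif2s1, and at chr3:163855551-163855580, minus strand, for Eif2s2. The run was found in promoters of 13 of the 61 member genes (21.3%), and the share over all genes with a promoter listed was 17.5%. Of the 13, 8 were higher and 4 lower in irradiated testes and 1 was not tested, with a median change of 0.63. Of the 48 without it, 21 were higher, 20 lower and 6 did not pass, and 1, Eef1a2, was not tested, with a median of -0.05. Over all 10841 genes tested, 47.6% were higher and 37.9% lower, with a median change of 0.20. Eif2ak4, which holds the run, and Eif2ak2, Eif2ak3 and Eef2k, which do not, were tested only through the irradiated arrays. Eef1akmt4, without the run, was tested only through control arrays. That all but fixed the calls of these genes. Whether the run goes with the change was not tested. Of the eIF2 genes, Eif2s3 holds the run and was higher, while Eif2s3y does not hold it and was also higher, and Eif2s1 and Eif2s2 do not hold it and were lower. The search covered the given strand, and the annotated starts may differ from those used in testis. A cyclic AMP response element, TGACGTCA, which reads the same on both strands, was found in 1 member promoter, that of Eef2, and in 1.83% of all promoters listed.

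Translation factors went both ways in irradiated testes, in shares near those of all genes. Of the 64 genes, 31 were higher and 25 lower in irradiated testes and 8 did not pass an adjusted p of 0.05 (limma), which makes 87.5% called. Over all 10841 genes the share called was 85.5%, with 47.6% higher and 37.9% lower, so the members' count lies near the background. Their median change was 0.19, against 0.20 over all genes. With arrays centred on their 75th percentile, which moves the median change of all genes to -0.17, 25 members were higher and 31 lower. Higher members then made up 44.6% of those called, against 55.4% as deposited, and over all genes the share went from 55.7% to 45.3%. The 5 irradiated arrays lay wholly above or below the 10 control arrays in 49 of the 64 genes, where the background is 69.5%. At least 2-fold changes past the threshold were found in 16 higher and 13 lower members, against 31.9% and 22.8% of all genes. Among the 94 probe sets tested, 86.2% were called (background 83.4%), with 46 higher and 35 lower (background 49% and 34.3%), and 64 did not overlap between the groups (background 65.5%). Ordered by role, the genes show calls in both directions in 7 of the 9 roles that hold more than 1 tested gene. Counts of genes by role given below stand beside the same 47.6% higher and 37.9% lower of all genes.

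**Figure D1:**
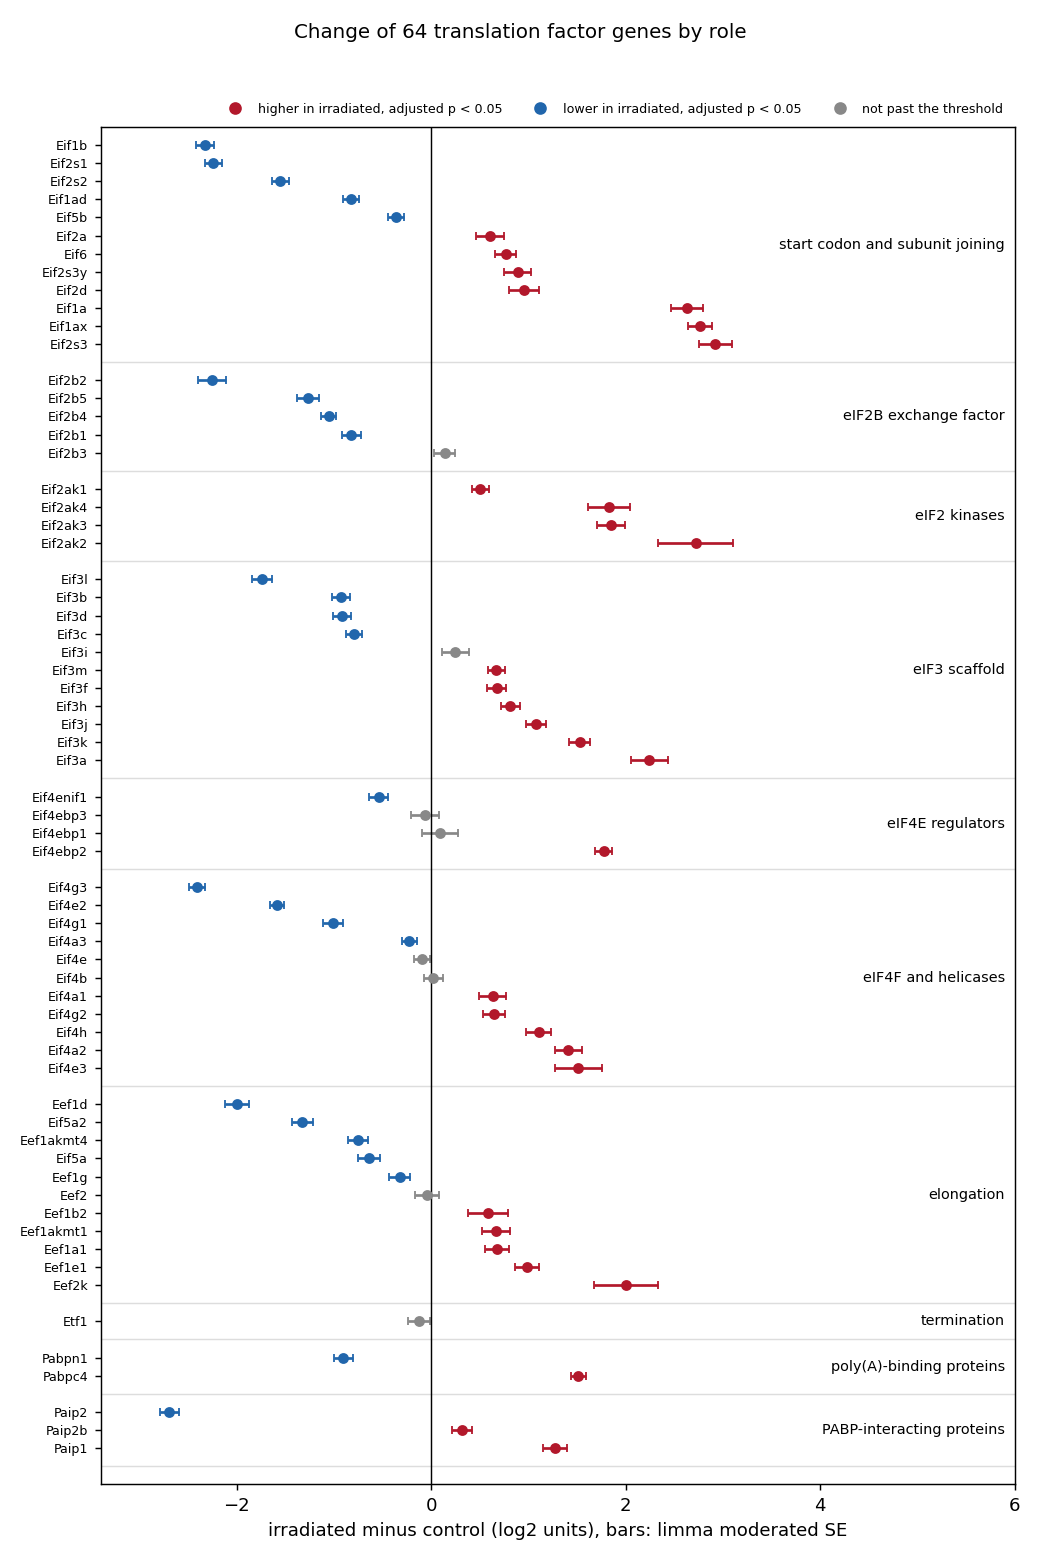
Change of the 64 tested genes, as irradiated minus control in log2 units on the x axis, grouped by role, with limma's moderated standard error as bars; the 4 eIF2 kinases lie to the right of 0 and 4 of the 5 eIF2B subunits to the left. Points are measured means, including those of Eif2ak2, Eif2ak3 and Eif2ak4, dim in all control arrays, and of Eef1akmt4, dim in all irradiated arrays.

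Markers of the testis cell types differed strongly between the same arrays. Of the spermatocyte markers on the array, all 8 were dimmer than the median probe set of each irradiated array. Their summed signal on a linear scale was 82.5 to 121 in control and 1 to 1.25 in irradiated arrays. The sums ran from 36.1 to 47 and 0.703 to 1.04 for the 6 round spermatid markers, and from 431 to 650 and 1.96 to 4.7 for the 12 elongating spermatid markers, all lower. Sertoli cell markers rose in 11 of 11 tested, with sums of 27.6 to 35.7 and 114 to 161, Leydig cell markers in 10 of 10 (7.67 to 11.6 and 96.4 to 117), macrophage and leukocyte markers in 10 of 10 (3.43 to 5.26 and 27.5 to 30.5) and peritubular markers in 8 of 8 (6.17 to 8.6 and 17.8 to 25.3). Spermatogonial markers went both ways, with 3 higher and 1 lower of 6 tested and sums of 6.33 to 7.49 and 7.31 to 10.5. Of these, Sohlh1, Sall4 and Lin28a lay below the array median in every array of both groups, Kit in every control array and Gfra1 in every irradiated array, as did Amh in both groups and Rhox5 in irradiated arrays among Sertoli markers. In control arrays the peritubular markers Tagln, Cnn1 and Lmod1 and the leukocyte markers Cd68, Cd163, Ptprc and C1qb lay below it throughout. These markers and Kit were tested only through the irradiated arrays, as were Tpm2, C1qa and Cd14, dim in 6, 9 and 6 control arrays. That all but fixed their higher calls. Gfra1, the 1 lower spermatogonial marker, was tested only through the control arrays, which all but fixed its lower call. The spermatogonial, peritubular and leukocyte counts therefore rest in part on the filter. In such bulk tissue, fewer cells of a type and less RNA per cell cannot be told apart. The part of these cell types in the changes of translation factors was not tested. The median change of the Sertoli markers was 2.27, and 4 of the 31 higher members, Eif2s3, Eif1ax, Eif2ak2 and Eif1a, had measured changes above it. Eif2ak2 was dim in every control array, and with signals raised to the array median its change was 1.08, below 2.27.

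The arrays themselves differed in level. The array median ran from -1.61 to -1.37 in control and from -1.38 to -1.26 in irradiated arrays (exact permutation p = 0.000666, 2-sided), and the 75th percentile was 0.37 higher in irradiated arrays (exact permutation p = 0.000333, 2-sided). The difference of the 3' and 5' actin probe sets, which grows as RNA degrades, ran from 0.65 to 1.89 and from 0.90 to 1.16 (exact permutation p = 0.967, 2-sided). Control replicates 6, 7 and 8 had the highest of these differences. Without them 31 members were again higher and 25 lower. Among tested member probe sets, the median SD between arrays was 0.228 in control and 0.175 in irradiated testes.

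Subunits of eIF2, the carrier of the initiator tRNA, moved in opposite directions. Eif2s1 (probe set 1367713_at) encodes the alpha subunit, the one that stress kinases phosphorylate. Its lowest, median and highest log2 signals were 3.67, 3.97 and 4.22 in control arrays, and 1.82, 1.54, 1.73, 1.83 and 1.73 in irradiated replicates 1 to 5. Every irradiated array lay below every control array, a change of -2.24 ± 0.09 (SE) or 4.73-fold lower (adjusted p = 5.47e-13). Eif2s2, the beta subunit, was 3.41, 3.60 and 3.96 at the lowest, median and highest control and 2.25, 2.00, 2.06, 2.05 and 2.07 after irradiation. It too fell in all 5 arrays beyond the control range, by 1.55 ± 0.09 (adjusted p = 5.20e-11).

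Eif2s3, an X-linked gene for the gamma subunit that holds GTP and the tRNA, went the other way. Its control signals were -2.21, -1.35 and -1.12 (lowest, median, highest) and those of irradiated testes 1.79, 1.40, 1.07, 1.37 and 1.48. The groups did not overlap. Since 4 control arrays and the control mean lay below the array median, the rise was at least 2.77 (measured 2.92, adjusted p = 6.63e-11). Eif2s3y, its Y-linked counterpart, rose less, by 0.89 ± 0.14, from a control mean of -0.24 ± 0.29 (SD, n = 10) to 0.64 ± 0.17 (SD, n = 5). The Eif2s3 change exceeded that of Eif2s3y by 2.03 ± 0.20 (exact permutation p = 0.000333, adjusted p = 0.000454 over 15 pairs), and by 1.88 with signals raised to the array median. This p is the smallest that 3003 splits of the arrays allow. The genes are similar in sequence, and how much each probe set reads of the other was not tested.

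eIF2B, which reloads eIF2 with GTP and is blocked by phosphorylated eIF2, was lower in 4 of its 5 subunits. Eif2b2, the beta subunit, had control signals of 1.47, 2.02 and 2.10 and irradiated signals of -0.21, -0.90, -0.29, 0.02 and -0.16. This fall of 2.25 ± 0.14 left no overlap between the groups (adjusted p = 1.86e-10). The catalytic subunit Eif2b5 fell by 1.27 and the regulatory subunits Eif2b4 and Eif2b1 by 1.06 and 0.82, each without overlap. Eif2b3, the partner of the catalytic subunit, did not pass, with a change of 0.14 ± 0.11 (SE) and overlapping groups (adjusted p = 0.235).

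Of the 4 kinases that phosphorylate eIF2 alpha, Eif2ak1 was measured above the array median in both groups. The other 3 lay below it in every control array and were kept for testing only through the irradiated arrays, so that their higher call was all but fixed by the filter and only a bound can be given. Among all 64 genes 4 were kept only through the irradiated arrays, the remaining one being Eef2k. Among tested member probe sets this held for 8, of which 7 were called higher. Eif2ak2, the kinase PKR that double-stranded RNA activates, was at least 2.11-fold higher, with control signals of -4.85, -2.72 and -2.24 and irradiated signals of -0.08, -0.69, -0.34, -0.48 and -0.36 (adjusted p = 5.47e-06). Eif2ak3, the endoplasmic reticulum kinase PERK, was at least 2.16-fold and Eif2ak4, the amino acid sensor GCN2, at least 2.01-fold higher. Eif2ak1, the heme-regulated kinase HRI, rose from 0.99, 1.25 and 1.37 at the lowest, median and highest control to 1.66, 1.76, 1.64, 1.94 and 1.62, by 0.50 ± 0.09, and by 1.00 in another probe set, without overlap in either. Centred on the 75th percentile, the first of these changes was 0.13 and did not pass (adjusted p = 0.199). Eif2ak1 and Eif2ak4 differed in change by -1.33 ± 0.24 in measured means (exact permutation p = 0.000333, adjusted p = 0.000454), and by -0.50 with signals raised to the array median (exact permutation, adjusted p = 0.00535). Between Eif2ak2 and Eif2ak3 the difference in change, 0.88 ± 0.34, did not pass (exact permutation p = 0.0779, adjusted p = 0.0779), and with signals raised to the array median it was -0.04.

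**Figure D2:**
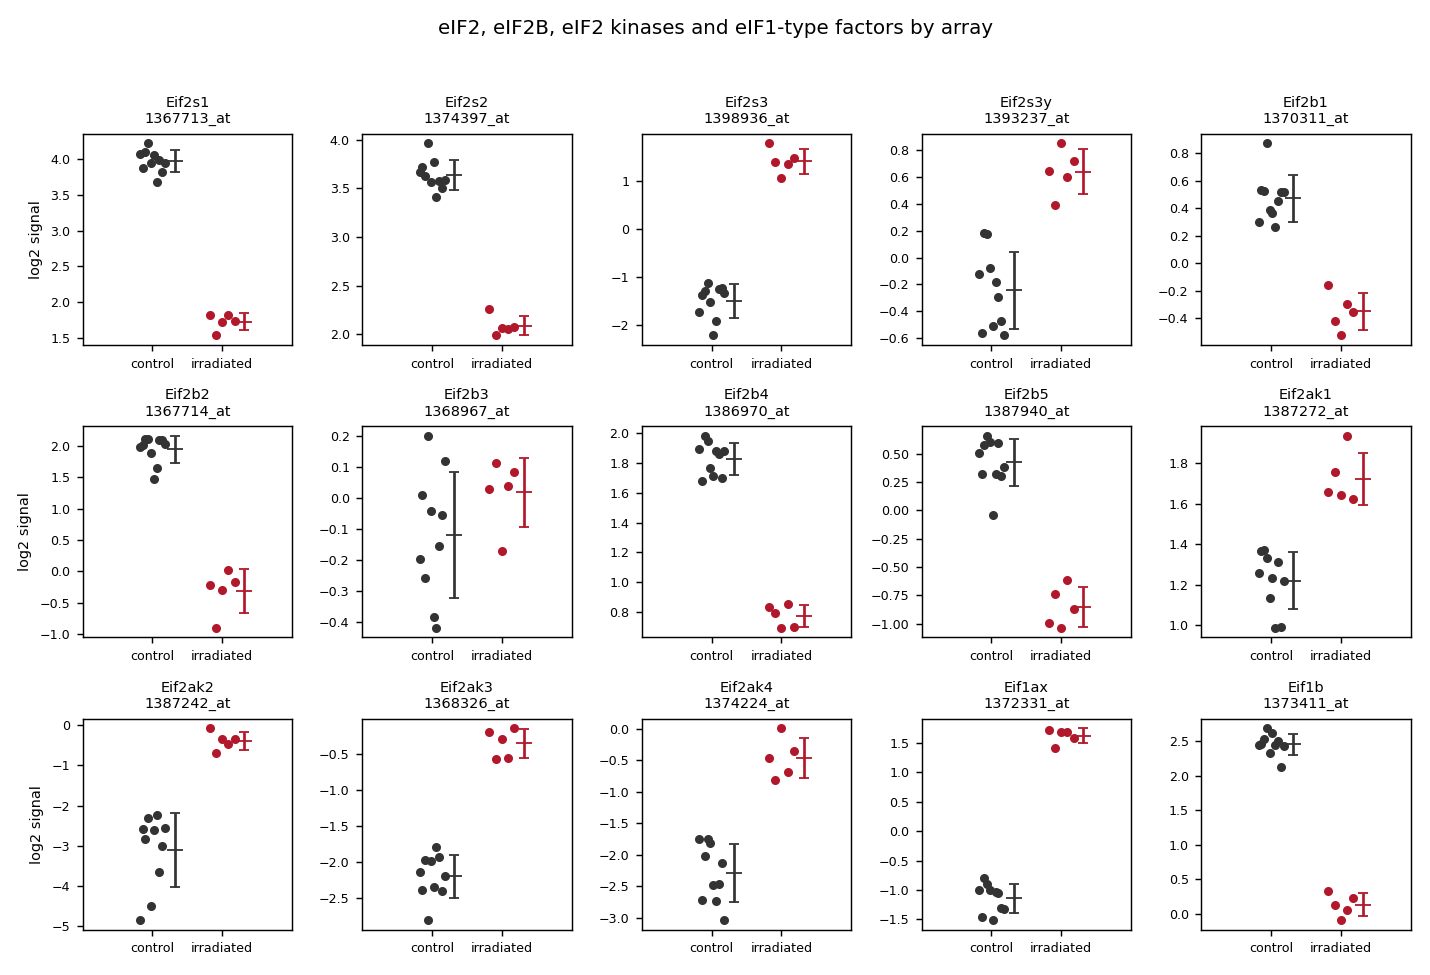
Log2 signal (y axis, own scale in each panel) of eIF2 subunits, eIF2B subunits, eIF2 kinases, Eif1ax and Eif1b in each of 10 control (black) and 5 irradiated arrays (red), with mean and SD beside the points. The groups overlap in the Eif2b3 panel and are apart in the other 14; Eif2s1 and Eif2s2 lie lower and Eif2s3 higher in irradiated arrays.

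The small factors of start codon selection also split. Eif1b, a close relative of eIF1, which guards the choice of the start codon, had control signals of 2.12, 2.46 and 2.69 and irradiated signals of 0.33, 0.13, -0.10, 0.06 and 0.23. Its groups were far apart, with a fall of 2.33 ± 0.10 (adjusted p = 7.04e-13). Eif1ax, an X-linked gene of the scanning factor eIF1A, rose from -1.52, -1.04 and -0.80 to 1.73, 1.41, 1.70, 1.68 and 1.59, by 2.76 ± 0.12 (adjusted p = 1.46e-12). Eif1a, another gene of that factor, rose by 2.63 in probe set 1374180_at, by 1.04 in 1397892_at and by at least 1.25 in 1384147_at. Probe set 1384147_at was kept for testing only through the irradiated arrays, which all but fixed its higher call. The remaining probe set of Eif1a, 1395840_at, changed by -0.38 (adjusted p = 0.0314). It did not pass without control replicate 5 or without irradiated replicate 2, 4 or 5 (adjusted p = 0.0511, 0.0943, 0.0636 and 0.0615). Eif1ad, which shares the eIF1A domain, fell by 0.83 ± 0.08, and the change of Eif1ax exceeded its change by 3.59 ± 0.11 (exact permutation p = 0.000333, adjusted p = 0.000454).

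Among the other factors of this step, Eif6, which keeps the large subunit free, rose by 0.76 and the tRNA-binding factors Eif2d and Eif2a rose by 0.95 and 0.60. Eif5b, the GTPase that joins the subunits, fell by 0.37 ± 0.08 in its brightest probe set 1388947_at, whose irradiated values of 1.78, 1.52, 1.47, 1.52 and 1.52 lay below the control range of 1.80 to 2.23. In probe set 1396191_at the same gene rose by 2.02 ± 0.18, also without overlap, and in 1395237_at it changed by -0.50 (adjusted p = 0.0509), a change that was -0.87 and passed with arrays centred on their 75th percentile (adjusted p = 0.00154).

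eIF3, the many-subunit scaffold that binds the small ribosomal subunit, had 6 higher, 4 lower and 1 not past the threshold among 11 subunits tested. By probe set the balance turned, with 6 higher and 8 lower of 16. The median change was 0.67 by gene and -0.33 by probe set. Eif3a, its largest subunit, showed the greatest rise. Control signals of probe set 1389968_at were -0.50, 0.18 and 0.76 and irradiated ones 2.73, 2.31, 2.48, 2.26 and 2.45, a rise of 2.24 ± 0.19 without overlap (adjusted p = 9.45e-09). A dimmer probe set of the gene changed by -0.24 and did not pass (adjusted p = 0.492). Eif3k rose by 1.52 and Eif3j by 1.08 in their brightest probe sets, while their other probe sets fell by 0.42 and 1.11. Eif3h rose by 0.81, Eif3f by 0.67 and Eif3m by 0.67. Eif3l was the subunit with the largest fall. It read 3.11, 3.34 and 3.73 in control and 1.76, 1.47, 1.52, 1.74 and 1.49 in irradiated arrays, a fall of 1.74 ± 0.10 (adjusted p = 6.11e-11), and fell by 2.11 in its other probe set. Eif3b, Eif3d and Eif3c fell by 0.93, 0.92 and 0.80, and both probe sets of Eif3c were lower. Eif3i did not pass (0.25 ± 0.13 (SE), adjusted p = 0.0975).

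Of the cap-binding complex eIF4F and its helicase cofactors, 5 genes were higher, 4 lower and 2 did not pass. The scaffolds differed: Eif4g3, a paralog of Eif4g1, fell the most. Its control signals were 3.66, 3.75 and 4.04 and its irradiated signals 1.59, 1.40, 1.17, 1.34 and 1.35, which gives a fall of 2.41 ± 0.08 or 5.3-fold (adjusted p = 6.19e-14). Eif4g1 fell by 1.01 ± 0.10 in its brightest probe set. Its other probe sets changed by -0.70 (1390340_a_at) and 0.79 (1395702_at, adjusted p = 0.0845), and 1385152_at was at least 1.82-fold lower. Probe set 1385152_at was dim in every irradiated array and kept for testing only through control arrays, which all but fixed its lower call. Eif4g2, the relative DAP5 that lacks the eIF4E contact, rose in its 3 probe sets, by 0.65, 0.84 and 0.79, although the last of these (1397520_at) was 0.42 and did not pass with arrays centred on their 75th percentile (adjusted p = 0.0982). The fall of Eif4g3 exceeded that of Eif4g1 by 1.39 ± 0.06, and Eif4g1 and Eif4g2 differed in change by -1.66 ± 0.10 (exact permutation p = 0.000333 and adjusted p = 0.000454 for both).

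Cap-binding proteins gave a change that depended on the probe set. Eif4e is represented by 1398799_at, with control signals of 2.26, 2.37 and 2.56 and irradiated signals of 2.54, 2.16, 2.24, 2.38 and 2.11. The groups overlapped and the change of -0.10 ± 0.08 (SE) did not pass (adjusted p = 0.294), although it did with arrays centred on their median (-0.25, adjusted p = 0.0144) or 75th percentile (-0.47, adjusted p = 2.81e-05). Probe set 1394529_at of the same gene was at 2.18, 2.45 and 3.11 in control and -3.05, -2.04, -2.28, -2.51 and -2.95 in irradiated arrays. All 5 irradiated arrays were below their medians, and the signal was at least 14-fold lower (adjusted p = 1.55e-13), the largest fall among the 94 tested member probe sets by measured means. Probe set 1394529_at was kept for testing only through the control arrays, which all but fixed its lower call. The third probe set, 1386997_at, was dim in 7 control arrays and kept for testing only through the irradiated arrays. Its measured change of 0.51 passed narrowly (adjusted p = 0.0281). With signals raised to the array median it was 0.25 and did not pass (adjusted p = 0.0754), nor did it with arrays centred on their median or 75th percentile or after quantile normalization (adjusted p = 0.113, 0.544 and 0.159). Without irradiated replicate 1, 2 or 5 it did not pass either (adjusted p = 0.0778, 0.0506 and 0.0598).

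Eif4e2, the homologue 4EHP that binds caps without recruiting eIF4G, fell by 1.59 ± 0.07, from 1.92, 2.07 and 2.21 to 0.50, 0.52, 0.33, 0.51 and 0.54 (adjusted p = 3.39e-12). Eif4e3, a further cap-binding form, rose by 1.51 ± 0.24, and was at least 1.97-fold higher in its other probe set. That other probe set was dim in every control array and kept only through the irradiated arrays, which all but fixed its higher call. The change of the representing Eif4e probe set exceeded that of Eif4e2 by 1.49 ± 0.09, a difference that was 0.04 (exact permutation, adjusted p = 0.645) when probe sets of a gene were averaged. Helicase genes rose, Eif4a2 by 1.41 ± 0.14 and Eif4a1 by 0.63 ± 0.14, with the Eif4a1 groups overlapping and its change at 0.26 (adjusted p = 0.0832) after centring on the 75th percentile. Eif4a3, the helicase of the exon junction complex, fell by 0.23. Eif4b, a helicase cofactor, did not pass in 1372124_at (0.02, adjusted p = 0.855) but rose by 1.37 ± 0.13 in 1371404_at.

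Regulators of eIF4E differed among themselves. Eif4ebp2, a binding protein that keeps eIF4E from eIF4G until mTORC1 phosphorylates it, rose from 0.83, 1.08 and 1.28 to 2.78, 2.92, 2.96, 2.86 and 2.68, by 1.77 ± 0.09 (adjusted p = 1.03e-11). Its relatives Eif4ebp1 and Eif4ebp3 did not pass, with changes of 0.09 ± 0.19 (SE) and -0.06 ± 0.14 (SE) and overlapping groups. The difference in change between Eif4ebp1 and Eif4ebp2 was -1.68 ± 0.20 (exact permutation p = 0.000333, adjusted p = 0.000454). Eif4enif1, the eIF4E transporter of processing bodies, fell by 0.54 ± 0.10.

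Elongation genes were 5 higher, 5 lower and 1 not past the threshold. Eef1d, an exchange factor subunit that recharges eEF1A, had the largest fall. Control arrays read 3.79, 4.20 and 4.46 and irradiated arrays 2.34, 2.06, 1.98, 2.41 and 1.91, a fall of 2.00 ± 0.12 without overlap (adjusted p = 1.16e-10). The other exchange subunits moved less: Eef1b2 rose by 0.58 ± 0.21 and Eef1g fell by 0.32 ± 0.11 in one probe set and rose by 0.50 in a dimmer one, all with overlapping groups. The rise in that probe set (1394744_at) was 0.13 and did not pass after centring on the 75th percentile (adjusted p = 0.43), nor after quantile normalization (adjusted p = 0.383). Eef1a1, the main tRNA carrier, rose by 0.67 ± 0.12 in 1370109_s_at and by 0.34 in 1388110_at, again with overlap. Eef2, which moves the ribosome along, did not pass (-0.05 ± 0.12 (SE), adjusted p = 0.736), with signals of 3.63, 4.07 and 4.41 in control and 4.13, 4.22, 3.74, 4.09 and 3.85 in irradiated arrays. After centring on the 75th percentile its change was -0.42 (adjusted p = 0.00436). Eef2k, the kinase that inactivates it, rose by at least 1.33 in 1369638_at (adjusted p = 3.00e-05), from -3.24, -1.96 and -1.16 to 0.28, 0.28, -0.21, -0.71 and -0.08, but not in the dimmer 1387658_at (0.23, adjusted p = 0.438).

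Eef1e1, a component of the tRNA synthetase complex, rose by 0.99 ± 0.12. Of the methyltransferases that act on eEF1A, Eef1akmt1 rose by 0.67 and Eef1akmt4 was at least 1.13-fold lower. Eef1akmt4 was dim in every irradiated array and kept for testing only through control arrays, which all but fixed its lower call. The lower counts of all members and of elongation genes include it. Eif5a, which relieves stalls of the ribosome and carries the modified residue hypusine, fell by 0.64 ± 0.12. Its paralog Eif5a2 fell by 1.33 ± 0.11 in its brighter probe set and by 0.30 in the other. The difference of 0.69 ± 0.13 between these paralogs passed (exact permutation p = 0.000666, adjusted p = 0.000714) with the brighter probe set and did not pass when the probe sets were averaged (0.17, adjusted p = 0.213). Eef1a2, the muscle and nerve form of eEF1A, had means of -1.80 and -1.75 in its brighter probe set, below the array median in 6 control arrays and all 5 irradiated arrays. Etf1, the release factor, did not pass, with a change of -0.13 ± 0.12 (SE) (adjusted p = 0.305) and irradiated signals of 2.08, 1.43, 1.27, 1.60 and 1.40, of which the first lay above the control range.

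Poly(A)-binding proteins coat the mRNA tail in the cytoplasm (Pabpc) or nucleus (Pabpn1). Pabpc4 was higher in both of its probe sets. The brighter one read 1.48, 1.56 and 1.72 in control and 3.32, 3.00, 2.99, 3.16 and 2.95 in irradiated arrays, a rise of 1.51 ± 0.08 without overlap (adjusted p = 1.64e-11). Pabpn1 had 1 probe set in each state. In 1379481_at it fell by 0.91 ± 0.10, in 1392480_at it rose by 1.23 ± 0.11, and in 1371958_at it did not pass (0.14, adjusted p = 0.31).

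Paip1 helps and Paip2 hinders the work of poly(A)-binding protein, and Paip2 is known to be needed for translation in late male germ cells. Paip1 rose by 1.28 ± 0.12 in one probe set and by 1.95 in the other. Paip2 in 1399026_at had control signals of 4.11, 4.22 and 4.58 and irradiated signals of 1.81, 1.58, 1.31, 1.59 and 1.56. This was a fall of 2.70 ± 0.10 or 6.48-fold (adjusted p = 1.25e-13), the largest among the 64 genes. In 1373013_at the same gene read 0.84, 1.11 and 1.22 in control and 2.85, 2.61, 2.66, 2.64 and 2.61 in irradiated arrays, a rise of 1.59 ± 0.08 (adjusted p = 1.26e-11). Neither probe set's groups overlapped. Paip2b, a second inhibitor, rose by 0.32 ± 0.10 with overlapping groups (adjusted p = 0.00804), and its change was -0.05 both after quantile normalization and after centring on the 75th percentile.

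The contrast within Paip2 was one of several. Of 22 member genes with more than 1 tested probe set, 9 had called probe sets of opposite sign (40.9%). Among all 2692 genes with several tested probe sets, 456 did (16.9%); the difference was not tested, and genes differ in how many probe sets they have. The 9 are Eef1g, Eif1a, Eif3j, Eif3k, Eif4e, Eif4h, Eif5b, Pabpn1 and Paip2. For Eif4e, the lower probe set was kept for testing only through control arrays and the higher one only through irradiated arrays. The opposite sign of Eif4e was lost under all 3 scalings and with signals raised to the array median, and that of Eef1g under 75th-percentile centring and quantile normalization. The count of member genes was then 8 with median centring, 8 with 75th-percentile centring (where Eif4b joined), 7 after quantile normalization and 8 with raised signals, and the share over all genes lay between 15.5% and 18.9%. Eif4h, a cofactor of the eIF4A helicase, read 1.45, 1.93 and 2.19 in control and 3.23, 2.96, 2.73, 2.97 and 2.82 in irradiated arrays in 1367531_at, a rise of 1.10 ± 0.13 (adjusted p = 6.67e-07). In 1397675_at it read 1.62, 2.09 and 2.54 and -0.82, -1.40, -1.46, -0.79 and -1.37, a fall of 3.25 ± 0.15 (adjusted p = 3.75e-12). The groups of neither overlapped. Changes of the 2 probe sets lay at least 4.29 log2 units apart for Eif4h, with signals raised to the array median, and 4.29 apart for Paip2, which was above that median throughout. Eif3j rose by 1.08 in one probe set and fell by 1.11 in the other, and Eif3k rose by 1.52 and fell by 0.42. The sources used here do not say which transcript ends the probe sets read.

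**Figure D3:**
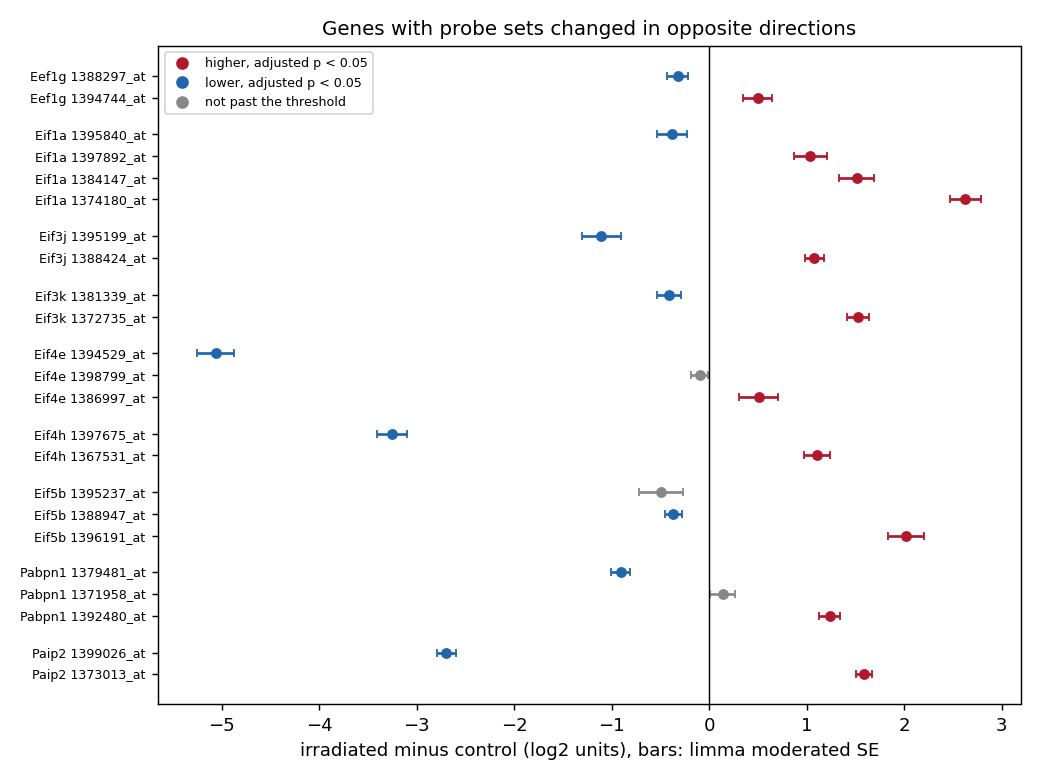
Change of each tested probe set (irradiated minus control, log2 units, x axis, with limma's moderated standard error) of the 9 genes with called probe sets of opposite sign. The probe set of Eif4e at -5.06 is the farthest left; its irradiated arrays all lay below the array median, so its point is a measured mean and not a bound.

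**Figure D4:**
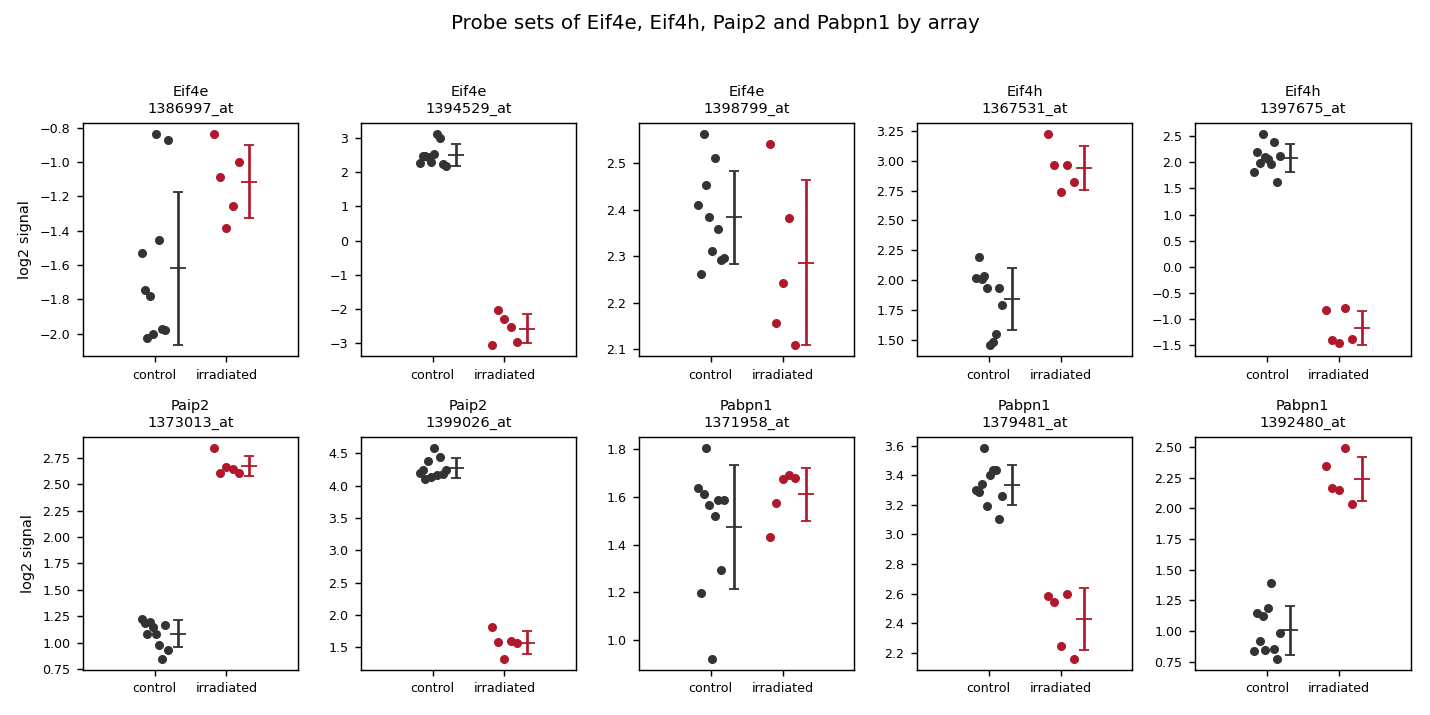
Log2 signal (y axis, own scale in each panel) of every tested probe set of Eif4e, Eif4h, Paip2 and Pabpn1 in 10 control (black) and 5 irradiated arrays (red), with mean and SD beside the points. One probe set each of Eif4e, Eif4h, Paip2 and Pabpn1 lies wholly lower in irradiated arrays, while another of Eif4h, Paip2 and Pabpn1 lies wholly higher.

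A difference between 2 probe sets of the same array is not moved by centring that array. Of 22 listed pairs of related genes, 15 had both genes tested, and 14 of these differed in change at an adjusted p under 0.05 (exact permutation over arrays, adjusted over the 15 pairs). In the remaining 7, at least 1 gene was not among the tested members. The 14 include Eif2ak1 with Eif2ak4 and Eef2 with Eef2k, although Eif2ak4 and Eef2k were kept only through the irradiated arrays. The p-values of these pairs do not allow for that selection. Paip1 and Paip2 lay farthest apart, with a difference in change of 3.97 ± 0.18, followed by Eif1ax and Eif1ad. Paip2 and Paip2b differed by -3.01 ± 0.13 and Eef2 and Eef2k by -2.05 ± 0.30 in measured means, or -1.38 with signals raised to the array median. The smallest differences that passed were those of Eif5a and Eif5a2 and of Eif2s1 and Eif2s2, which fell together but by unequal amounts (-0.69 ± 0.05). Eif4a1 and Eif4a2 rose together and differed by -0.78 ± 0.15, and Eif4e and Eif4e3 differed by -1.61 ± 0.24 (exact permutation p = 0.000666 and adjusted p = 0.000714 for both). These tests used the brightest probe set of each gene, which for Paip2 is the one that fell.

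**Figure D5:**
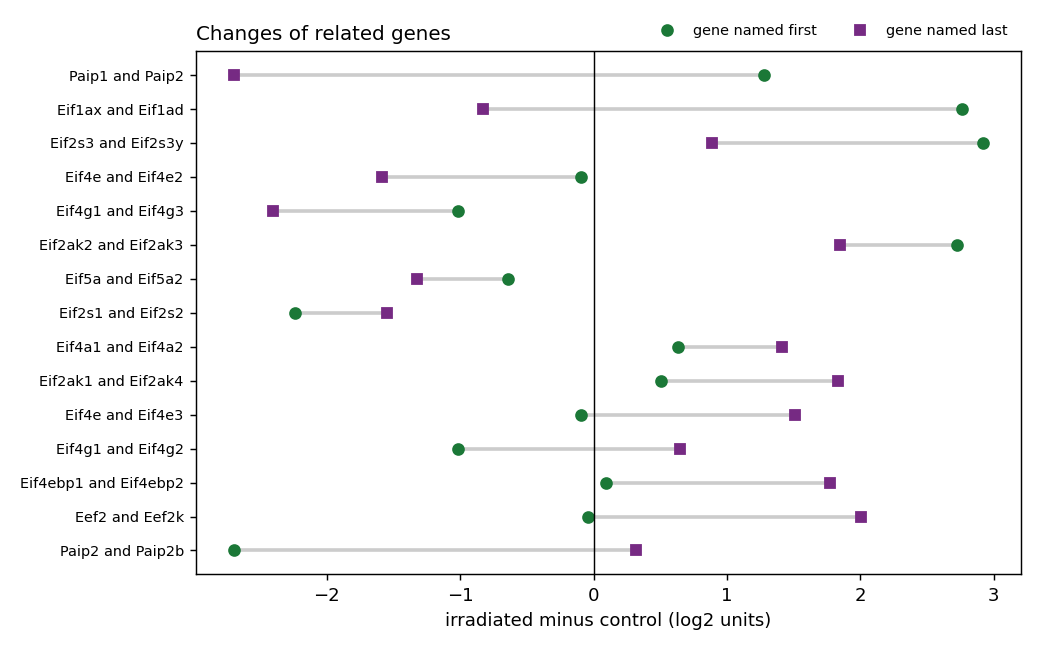
Change (irradiated minus control, log2 units, x axis) of both genes of the 15 related pairs, as circles for the gene named first and squares for the gene named last; grey lines join a pair, and points are measured means of the brightest probe set. The pairs Paip1 with Paip2, Eif1ax with Eif1ad, Eif4g1 with Eif4g2 and Paip2 with Paip2b have called changes on both sides of 0.

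Genes around the translation factors were taken from lists written from general knowledge. Of those tested, Rps6kb1, Atf3, Cebpb, Cnot6l, Xrn1 and Hars1 were kept only through the irradiated arrays, which all but fixed their higher calls. Tsc1, Papolb, Ddx25, Ybx2, Piwil2 and Rbm44 were dim in every irradiated array and kept only through control arrays. That all but fixed their lower calls. The counts and medians of the lists include these genes. Of 14 tested genes of mTORC1 and S6 kinase signalling, which drives cap-dependent translation, 10 were higher and 3 lower, with a median of 0.65 (0.45 from that of all genes). Ddit4, an inhibitor of mTORC1, rose by 2.48, while Tsc1, another inhibitor, was at least 2.94-fold lower. Genes of the integrated stress response, the programme downstream of eIF2 alpha phosphorylation, were 10 higher and 4 lower of 15, with a median of 1.02 (0.82 from that of all genes). Atf4, its main transcription factor, rose by 1.02, and Atf3 was at least 1.63-fold higher. Ddit3 and Chac1, both known targets of the programme, changed by -1.04 and -1.11, Asns by -0.23 and the lowest, Vldlr, by -1.23. Atf4, Ddit3, Chac1 and Asns were named after their values were seen.

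Deadenylation and mRNA decay genes, which act on the tail that poly(A)-binding proteins cover, were 13 higher and 7 lower of 22, with a median of 1.20 (1.00 from that of all genes). Zfp36l1, which brings deadenylases to AU-rich mRNAs, rose by 2.87, and Cnot4, a ubiquitin ligase tied to the Ccr4-Not complex, had the lowest change (-2.23). Germ cell RNA-binding and polyadenylation genes were 10 higher and 8 lower of 19. Their median of 0.24 (0.04 from that of all genes) and their mean of -1.49 differ in sign. Papolb, the testis poly(A) polymerase, was at least 18.2-fold lower and Prkra, an activator of the kinase PKR, rose by 3.14. Ribosome release and recycling genes were 2 higher and 3 lower of 5, with a median of -0.58 (-0.78 from that of all genes), between Abce1 at 0.58 and Pelo at -1.17. After quantile normalization none of the 5 was higher.

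Cytosolic tRNA synthetase genes, which load tRNAs for elongation, were 10 higher and 8 lower of 20, with a median of 0.18 (-0.02 from that of all genes). Hars1 was at least 1.58-fold higher and Vars1 fell by 1.56. Mitochondrial translation factors were 2 higher and 2 lower of 7, with a median of -0.11 (-0.31 from that of all genes), from Gfm1 at 0.62 to Mrrf, which recycles mitochondrial ribosomes, at -1.41. The shares called in these lists stand beside 47.6% higher and 37.9% lower among all genes.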

How the data were processed

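Whole-testis RNA of 10 control and 5 irradiated samples was measured on 15 arrays. The authors deposited 1 log2 value per probe set and array, computed with MAS5 per the submitters' processing notes. Base 2 was inferred, since the hybridisation spike-in probe sets gave 0.893 (control) and 0.928 (irradiated) units per doubling, so folds may be slightly understated. The sources used here do not state how arrays were scaled. Number of arrays, not read depth, limits the precision.

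Probe sets at or above their array's median in at least 5 of 15 arrays were kept (18711 probe sets), fitted with lmFit and eBayes in limma 3.58.1 (R 4.3.3), and adjusted by Benjamini-Hochberg over all of them at 0.05. Every adjusted p of a gene or probe set is from limma, and the test was also run on simulated data. Each gene was represented by its brightest tested probe set, by the mean of the 15 arrays. Where every array of a group lay below its median, a fold is given as "at least N-fold", with that group's values raised to the median. Where only the group mean did, the change is given as "at least" in the same way. Pairs of related genes were compared by the difference of their signals within each array, with a 2-sided exact permutation test. Gene symbols come from a platform annotation of 2016, and 436 probe sets with several symbols were not named.

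Genes named with values are those of the tested pairs, the extremes of each role and of all members, and those with opposite probe sets. Further members are named beside them. The members, lists and alternatives were chosen with earlier results of these data known. Alternatives covered scaling, filters, the probe set that stands for a gene, cross-hybridising probe sets, RNA quality, the variance model, a floor at the array median, a replicate block and each replicate left out. Correlations of deviations between samples of the same number were -0.05 to 0.07, so the numbers were not taken to pair the samples.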

Additional observations from a re-analysis of the deposited data

Results flagged for a closer look

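In 166 groups of 5 or 10 arrays examined for named probe sets and pairs, 13 had a highest or lowest array that stood apart from the rest of its group by Dixon's criterion (7.83%), where about 1 in 20 is given by chance. Control replicate 4 was the high one for 3 probe sets. It read 3.73, with the others between 3.11 and 3.43, for Eif3l (1398929_at), 4.04, with the others between 3.66 and 3.80, for Eif4g3, and 2.23, with the others between 1.80 and 1.98, for Eif5b (1388947_at). Control replicate 6 was low for Eif4a1, at 1.42, with the others between 1.99 and 2.32, and for the difference of Paip1 and Paip2, at -3.99, with the others between -3.42 and -2.79.

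Irradiated replicate 1 was high for Eif3j (1388424_at), at 1.56, with the others between 1.27 and 1.33, for Eif5b (1388947_at), at 1.78, with the others between 1.47 and 1.52, and for Paip2 (1373013_at), at 2.85, with the others between 2.61 and 2.66. Irradiated replicate 3 was low for Eif4e2, at 0.33, with the others between 0.50 and 0.54. It was high for the difference of Paip1 and Paip2, at 1.33, with the others between 0.54 and 0.74, and low for that of Paip2 and Paip2b, at 0.68, with the others between 1.06 and 1.19. Irradiated replicate 4 was low for Eif3a (1379485_at), at -2.08, with the others between -1.18 and -0.96, and high for the difference of Eef2 and Eef2k, at 4.80, with the others between 3.85 and 3.95.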

How the results depend on the processing

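The counts of 31 higher and 25 lower members stayed within 1.5 times under every alternative run. The median member change was -0.18 with arrays centred on their 75th percentile, 0.037 on their median, -0.024 after quantile normalization and 0.020 with the filter at the 75th percentile. The median of all genes was -0.17, 0.05 and -0.06 under these 3 scalings, and 0.08 without a filter. Release and recycling genes were higher in 0 (75th percentile, quantile) or 1 (median, replicate block). These pathway counts were added as results to recompute after the data were seen. Higher tRNA synthetases numbered 6 with 75th-percentile centring. Mitochondrial factors were 4 lower under all 3 scalings, 1 higher under the 75th percentile and quantile scalings, and 1 higher and 1 lower with the stricter filter.

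Signs turned as follows, and the cause was not tested. Eif4ebp1 was -0.28 (75th percentile), -0.065 (median) and -0.27 (quantile), and between -0.041 and 0.21 without irradiated replicate 2 or 4. Paip2b was -0.055 (75th percentile) and -0.050 (quantile). Eef2k in 1387658_at was -0.14 (75th percentile) and -0.0085 (replicate block). Pabpn1 in 1371958_at was -0.24, -0.018 and -0.069 under the 75th percentile, median and quantile scalings. Eef2 was 0.085 (quantile), and between -0.098 and 0.021 without irradiated replicate 2 or 3. Averaging a gene's probe sets gave 0.088 for Eef1g, -0.015 for Eif3j, -1.07 for Eif4h, 0.39 for Eif5b and 0.16 for Pabpn1. The difference of Eif2ak2 and Eif2ak3 was -0.036 with values raised to the array median.

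With the replicate number as a block, which in effect leaves out controls 6 to 10, 30 members were higher and 23 lower. Every replicate left out in turn gave 31 to 32 higher and 25 to 26 lower members, 45 to 47 and 34 to 37 probe sets, medians of 0.17 to 0.24 and 14 to 15 pairs past the threshold. The 15th pair, Eif2ak2 with Eif2ak3, passed without control replicate 4. In the lists, leaving out a replicate gave 9 to 10 higher and 8 to 8 lower tRNA synthetases, 9 to 10 and 8 to 8 germ cell genes, 10 to 10 and 3 to 4 stress response genes, and 2 to 2 and 2 to 3 mitochondrial factors.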
